A study of Mus musculus with 2 samples.

Results

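In the PPARg-low library of splenic regulatory T cells (Tregs), 208 of 1619 kept cells were selected on the raw counts of 4 genes: each carried 2 or more UMIs (unique molecular identifiers, 1 per captured RNA molecule) summed over Il10, Lag3, Ccr8 and Il1r2. These are called gated cells, and the other 1411 kept cells of that library are their comparison. A barcode was kept if 10% or less of its UMIs came from mitochondrially encoded genes. The whole series had 4894 barcodes, of which 4252 were kept.

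The study set PPARg-low Tregs beside PPARg-negative Tregs, 1 library of each, from mice of strain B6 Pparg-Tdt.Foxp3-Gfp. Both libraries came from the spleens of male mice aged 8 weeks, with the cells of 2 or 3 animals pooled, and both were made with 3′ droplet chemistry (Chromium, V2). All the cells carried both reporter alleles, a Tdt label for Pparg and a Gfp label for Foxp3, and no treatment is named. The gated cells and their comparison come from 1 sort and 1 library, so nothing below has a replicate check and no p-value is given; every interval covers counting error only.

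Tregs hold back immune responses, and effector Tregs do so partly through secreted and surface molecules. Interleukin 10 is a secreted cytokine that dampens inflammation, Lag3 is an inhibitory receptor that binds MHC class II, Ccr8 is a chemokine receptor of tissue and effector Tregs, and Il1r2 is a decoy receptor that captures interleukin 1 without passing on its signal. PPARg is a nuclear receptor known for its role in Tregs of visceral fat.

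On the mm10 build, with gene bounds from GENCODE M21, Il10 lies on chromosome 1 (131019845 to 131024974, plus strand), Il1r2 on chromosome 1 (40074079 to 40125231, plus strand), Lag3 on chromosome 6 (124904361 to 124911705, minus strand) and Ccr8 on chromosome 9 (120092114 to 120094906, plus strand). The 4 genes chose the cells, so their levels are given as a description. Lag3 was the most frequent of the 4, with 380 UMIs in 154 of the 208 gated cells. Il10 had 200 UMIs in 69 gated cells, Il1r2 had 160 UMIs in 69, and Ccr8 had 128 UMIs in 97. Most gated cells carried only part of the set: 76 had 1 of the 4 genes, 91 had 2, 33 had 3 and 8 had all 4. The commonest makeup was Lag3 alone, in 45 cells, followed by Lag3 with Ccr8, in 36 cells. Il10 was not found in 139 of the 208 cells, so the label "Il10, Lag3, Ccr8" holds for the cells as a set and not for each cell.

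At the bound of the rule, 1121 kept cells had 0 gate UMIs, 290 had 1, 83 had 2, 43 had 3, 22 had 4 and 60 had 5 or more, up to 17 in a cell. Cells just inside, with 2 gate UMIs, had a median of 1675 UMIs, against 1444 in cells just outside, with 1. Gated cells were deeper, with a median of 1764.5 UMIs, against 1446 in the other kept cells. A rule on raw UMIs favours deep cells, so each gated cell was paired with 2 other kept cells of nearly equal depth, counted without the gate genes. Pairs were found for 201 gated cells, which gave a median of 1739 UMIs in gated cells and 1736.5 UMIs in 402 other cells.

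As a further description of the rule, each gene was left out in turn and counted in cells with 2 or more UMIs of the other 3 and in depth-matched cells. The 4 genes were put together with earlier results of these data known, so these values lend no support to their grouping. Lag3 was found in 51.8% (57 of 110) of cells gated by the other 3 genes, against 15.8% (52 of 330) of matched cells. Ccr8 was found in 34.4%, against 8.59%, of matched cells. Il1r2 was found in 22.7%, against 6.40%, of matched cells. Il10 was found in 21.6%, against 5.85%, of matched cells. In CPM (a gene's UMIs per 1e6 UMIs of the summed cells) the ratios were 4.93 for Lag3, 4.78 for Ccr8, 5.93 for Il1r2 and 4.50 for Il10. With partners matched on ribosomal share as well, they were 3.86, 3.12, 7.62 and 3.52, in the same order.

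**Figure D1:**
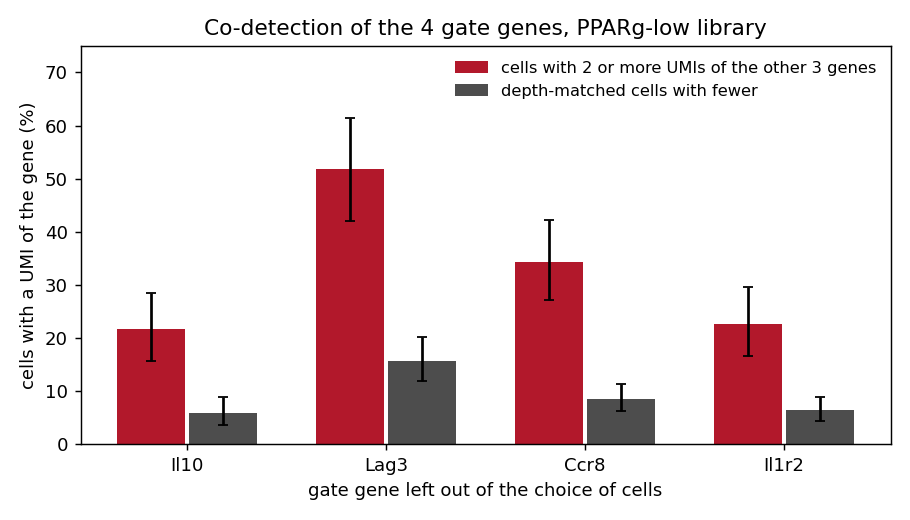
Share of cells (%) with a UMI of each gate gene, among cells with 2 or more UMIs of the other 3 genes (red) and among depth-matched cells with fewer (grey), PPARg-low library. Bars are shares and lines are exact binomial 95% intervals. The shares run from 21.6% against 5.85% for Il10 to 51.8% against 15.8% for Lag3.

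Gated cells were T cells by their markers. Cd3e, a subunit of the T cell receptor complex, was found in 186 of 201 gated cells and 351 of 402 other cells, and Ikzf2, a Treg transcription factor, in 195 of 201 gated cells and 371 of 402 other cells. Foxp3, the factor that defines Tregs, was sparsely captured, with 14 UMIs in 13 gated cells and 26 UMIs in 24 other cells. Its ratio was 1.08 (95% counting interval 0.519 to 2.14), so no difference was detectable at this depth. Pparg itself had 9 UMIs in gated cells and 10 UMIs in other cells (ratio 1.80, 0.646 to 4.92), also too few to place. Of the 12 Treg identity genes, 3 were higher in gated cells, Ctla4, Tnfrsf18 and Cd4, and 0 were lower; ribosome-matched, 3 were higher and 1 was lower.

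Most markers of other cell types were at or near 0. Cd79a (B cells) was found in 0 of 190 gated cells and 0 of 378 other cells after each cell was thinned to 750 UMIs, where the exact binomial limits on the share of cells with a Cd79a UMI are 1.92 and 0.971%. All 7 neutrophil markers were at 0 in gated cells. The summed levels of plasma cell, monocyte and macrophage, dendritic cell, gamma-delta and innate lymphoid, and erythroid and platelet markers were between 2.33 and 16.3 CPM in gated cells, against 4.68 to 14.0 CPM in other cells. Of the CD8 T and NK cell markers, 4 of 6 were at 0 in gated cells, but their summed level was 70.0 CPM in gated cells, against 35.1 CPM in other cells (ratio 2.0, 1.16 to 3.43; 1.94, 1.07 to 3.64, matched on ribosomal share too). Most of it was Cd8b1, at 58.4 CPM in gated cells, against 35.1 CPM in other cells (ratio 1.66, 0.938 to 2.93); the part of such cells in the results was not tested. The B cell list had 6 of 9 genes at 0 in gated cells, but Cd74, the MHC class II invariant chain, was higher at 943 CPM in gated cells, against 429 CPM in other cells (ratio 2.20, 1.90 to 2.54; 1.81 matched on ribosomal share too). Cd79b, also on the B cell list, was present at a low level, with 16 UMIs in 15 gated cells and 28 UMIs in 24 other cells. Its ratio was 1.14 (0.577 to 2.18), and 0.570 ribosomal share matched too. The source of these transcripts was not tested. The libraries shared 5 barcode sequences, none of them in a gated cell, and the doublet caller marked 0 gated cells.

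Gated cells also differed in the make-up of their RNA. Cells with under 20% of UMIs from ribosomal protein genes made up 77.1% (155 of 201; 70.7 to 82.7%) of gated cells, against 47.8% (192 of 402; 42.8 to 52.8%) of depth-matched other cells. The median ribosomal share was 11.6% in gated cells, against 21.0% in other cells, and the median mitochondrial share was 5.37% in gated cells, against 3.64% in other cells. Among cells just inside the rule 67.5% were ribosome-poor, against 64.1% just outside. What part this plays in the gene differences below was not tested, so a second comparison was made of 207 gated cells and 207 other cells, paired on depth and on the side of the 20% bound. Its ratios and counts are called ribosome-matched and stand beside most of the depth-matched ones. Matching on a side of the bound did not make the shares equal. The median ribosomal share was still 11.8% in these gated cells, against 13.5% in their partners. The median mitochondrial share was 5.34% in these gated cells, against 4.36% in their partners.

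**Figure D2:**
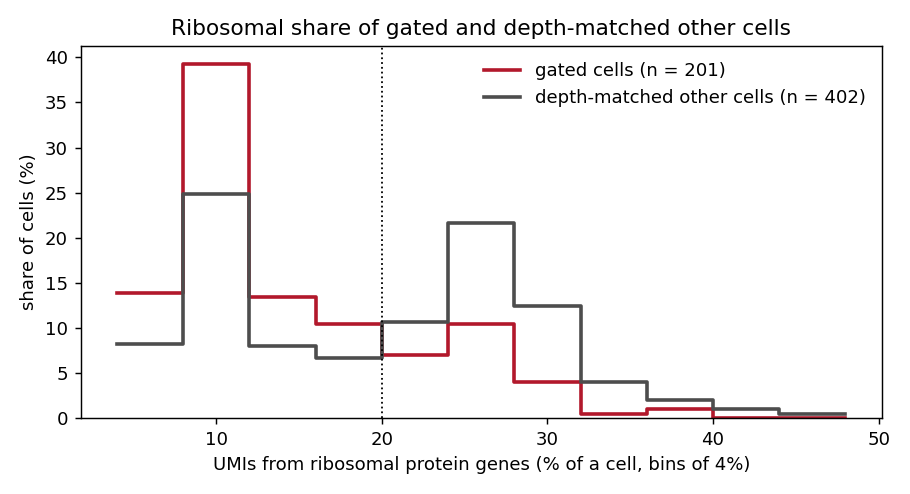
Share of each cell's UMIs that came from ribosomal protein genes (x axis, bins of 4%) in 201 gated cells (red) and 402 depth-matched other cells (grey); the y axis is the share of cells (%). The dotted line is the 20% bound: 77.1% of gated cells and 47.8% of other cells lie left of it, and both sets of cells have a peak on each side.

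Without the gate genes, 348 of 5066 measured genes (6.87%) were higher in gated cells and 153 (3.02%) were lower (a 1.5-fold change or more, up or down, whose interval left out 1). A gene was measured if it had 30 or more UMIs over both sets of cells. In the ribosome-matched comparison 197 of 4253 measured genes (4.63%) were higher and 181 (4.26%) lower. Of the 348 higher genes, 153 were called higher there too and 346 had a ratio above 1. Of 152 lower gene symbols, 92 were called lower there too and 152 had a ratio below 1. Both comparisons used nearly the same gated cells and drew partners from the same other kept cells, so these counts are a description. The plot of the 12 highest and 12 lowest genes gives all 3 comparisons that were made.

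**Figure D3:**
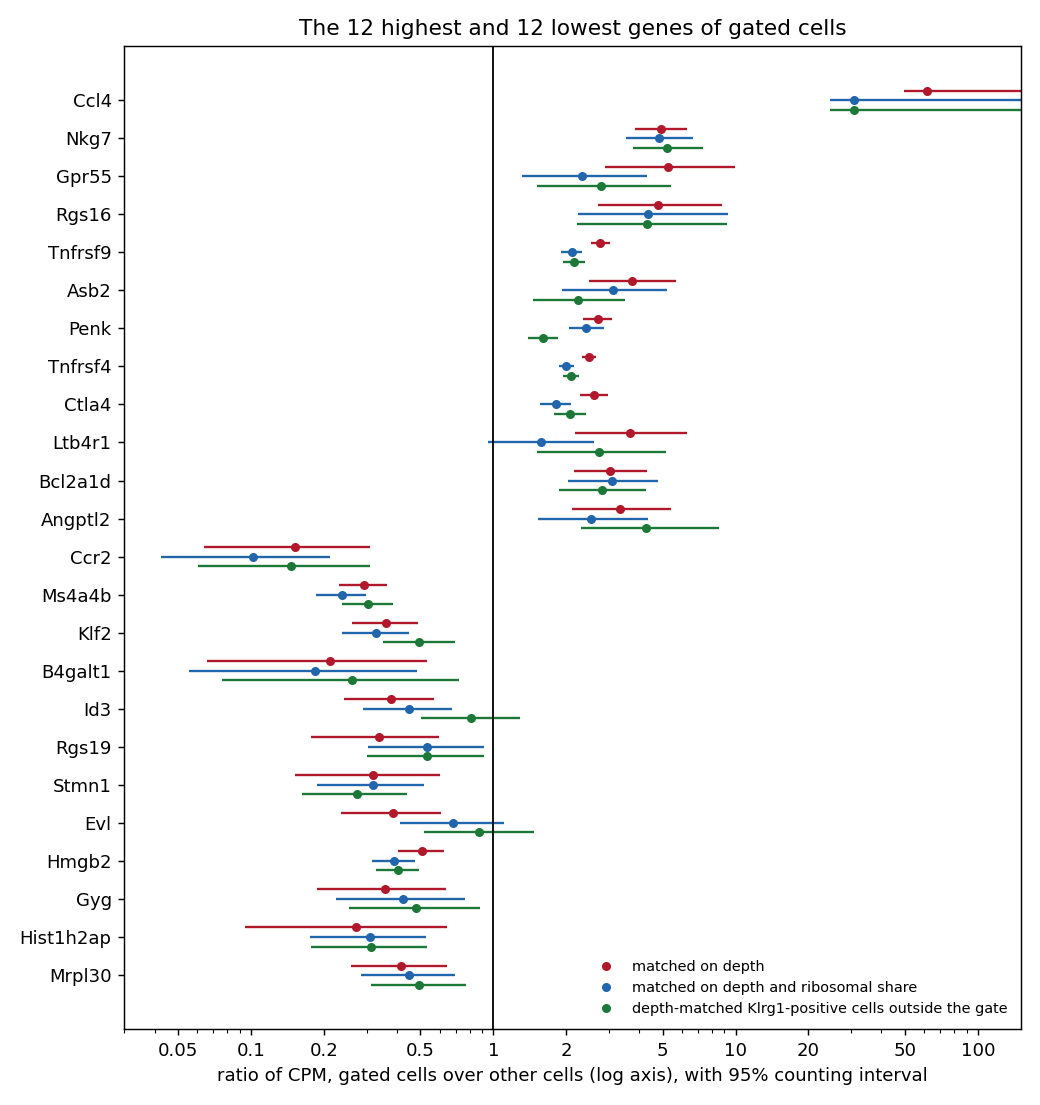
Ratio of CPM, gated cells over other cells (log axis), for the 12 highest and 12 lowest genes under the naming rule, matched on depth (red), on depth and ribosomal share (blue), and against depth-matched Klrg1-positive cells outside the gate (green). Points are ratios and lines are 95% counting intervals, which run off the axis for Ccl4; Ltb4r1 and Evl reach 1 with ribosomal matching, and Id3 and Evl reach it against Klrg1-positive cells.

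Among surface receptors, the TNF receptor and costimulatory genes were higher as a group. Of 12 measured members, 6 were higher in gated cells and 0 were lower, with a median log2 ratio of 0.63, against 0.05 over all measured genes; ribosome-matched, 5 were higher and 1 lower (median 0.46, against -0.00). Tnfrsf9 (4-1BB, a costimulatory receptor of activated T cells) was at 2671 CPM in gated cells, against 966 CPM in other cells. Tnfrsf4 (OX40) reached 5129 CPM in gated cells, against 2067 CPM in other cells. Tnfrsf18 (GITR, a receptor that Tregs carry at high levels) reached 2542 CPM in gated cells, against 1311 CPM in other cells.

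Those 3 receptors were widespread rather than carried by a few cells. Their ratios were 2.77 (2.53 to 3.03), 2.48 (2.33 to 2.64) and 1.94 (1.78 to 2.11) for Tnfrsf9, Tnfrsf4 and Tnfrsf18, and 2.11, 2.0 and 1.62 ribosome-matched. After thinning to 750 UMIs, which left out 11 gated and 24 other cells, Tnfrsf9 was found in 72.1% of gated cells, against 40.7% of other cells, and Tnfrsf4 in 86.8% of gated cells, against 61.9% of other cells. Unthinned, Tnfrsf9 was found in 91.0% of gated cells, against 57.5% of other cells, and Tnfrsf4 in 96.5%, against 80.3%. Tnfrsf8 (CD30) was scarcer, with 28 UMIs in gated cells and 19 UMIs in other cells (ratio 2.94, 1.59 to 5.58; ribosome-matched 1.93). Icos, a costimulatory receptor, went the other way once ribosomal share was matched, with a ratio of 0.851 (0.707 to 1.02) on depth alone and 0.585 ribosome-matched.

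Inhibitory receptors other than Lag3 moved in the same direction. Of 10 measured members, 6 were higher and 0 lower (median log2 ratio 0.90), and 3 of 9 were higher ribosome-matched (median 0.46). Ctla4, which strips costimulatory ligands from antigen-presenting cells, was at 1212 CPM in gated cells, against 466 CPM in other cells (ratio 2.60, 2.28 to 2.97; ribosome-matched 1.81). In ribosome-rich cells alone the log2 ratio of Ctla4 was -0.22 (-0.73 to 0.29). Of the 519 Ctla4 UMIs in matched gated cells, 1 cell held 48. Pdcd1 (PD-1) was at 829 CPM in gated cells, against 343 CPM in other cells, and its ratio of 2.42 (2.07 to 2.83) was as large ribosome-matched, at 2.52. Tigit had 30 UMIs in gated cells and 28 UMIs in other cells (ratio 2.14, 1.24 to 3.72; ribosome-matched 2.35).

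Klrg1, an inhibitory receptor of effector Tregs, was at 1314 CPM in gated cells, against 706 CPM in other cells (ratio 1.86, 1.66 to 2.09), but its ribosome-matched ratio of 1.37 was below the 1.5 that a call needs, and in ribosome-rich cells alone its log2 ratio was -0.15. In thinned cells it was found in 54.7% (47.4 to 62.0%) of gated cells, against 38.9% (33.9 to 44.0%) of other cells; unthinned the shares were 71.1 and 55.5%. Vsir (VISTA) was likewise higher on depth alone (1.66) and not ribosome-matched (1.1). The sort left no cell type that should lack these genes, so the background that free RNA adds to the shares was not measured.

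Of 11 measured suppressive mediators besides the gate genes, with Ctla4 again among them, 6 were higher and 0 lower (median log2 ratio 0.61), but ribosome-matched 2 were higher and 2 lower (median 0.14). Itgav, an integrin subunit that takes part in activating TGF-beta, had ratios of 1.75 (1.14 to 2.69) and 1.69 ribosome-matched. Tgfb1 was at 521 CPM in gated cells, against 341 CPM in other cells, a ratio of 1.53 (1.28 to 1.82) that was 1.17 ribosome-matched; in ribosome-rich cells alone the log2 ratio of Tgfb1 was -0.33. Gzmb, the cytotoxic protease granzyme B, had ratios of 1.19 (0.919 to 1.54) on depth and 0.439 ribosome-matched, and Ebi3, a subunit of interleukin 35, 0.913 and 0.628.

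Genes of the pathways that the gate genes belong to did not move as groups. Of 7 measured interleukin 10 signalling genes, 0 were higher and 0 lower in either comparison (depth-matched median log2 ratio 0.06). Il10ra, the receptor's ligand-binding chain, was at 81.7 CPM in gated cells, against 64.3 CPM in other cells (ratio 1.27, 0.807 to 1.98), and Stat3, which carries its signal, had a ratio of 1.27 (0.892 to 1.80). Of 5 measured interleukin 1 family receptor genes, 0 were higher and 1 was lower: Myd88, the adaptor of interleukin 1 receptors, with 7 UMIs in gated cells and 37 UMIs in other cells (ratio 0.378, 0.142 to 0.859; ribosome-matched 0.347). The activating receptor Il1r1 was at 0 UMIs in both sets of cells. Il1rl1 (ST2, the interleukin 33 receptor) had a ratio of 0.925 (0.507 to 1.63).

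Several of the highest genes outside these families have roles in signalling or cytotoxic granules. Nkg7, a granule protein of cytotoxic lymphocytes (chromosome 7, 43437073 to 43438249, plus strand), had 236 UMIs in 49 of 201 gated cells, against 96 UMIs in 34 of 402 other cells. Its ratio was 4.91 (3.86 to 6.29), and 4.82 ribosome-matched. In thinned cells it was found in 17.9% of gated cells, against 4.50% of other cells. The cytotoxic genes did not rise together, since Gzmb and the chemokine gene Ccl5 (ratio 0.863, 0.733 to 1.01) were not called on depth. Of 6 measured Th1-like genes, 2 were higher, Nkg7 and Ccl4 (median log2 ratio 0.16); ribosome-matched, 2 of 5 were higher and 1, Gzmb, lower, and the median was -0.32.

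Ccl4, which encodes an inflammatory chemokine, headed the ranking on the strength of 1 cell. It had 93 UMIs in 4 gated cells and 0 UMIs in other cells. Against a floor of 3 counts over the other cells its ratio was 61.9, with a lower interval bound of 49.4. A cell with 2135 UMIs held 83 of the 93, together with all 20 Ccl3 UMIs of the gated cells and 8 Il10 UMIs. Without that cell the log2 ratio against the floor was 2.73.

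Rgs16, a regulator of G protein signalling, had 43 UMIs in 27 gated cells and 18 UMIs in 16 other cells (ratio 4.77, 2.69 to 8.79; ribosome-matched 4.35). Gpr55, a lipid-sensing receptor, had 42 UMIs in gated cells and 16 UMIs in other cells (ratio 5.24, 2.89 to 9.99), and its ribosome-matched ratio was smaller at 2.33. Ltb4r1, a receptor for leukotriene B4, had a ratio of 3.66 (2.18 to 6.29) that fell short of a call ribosome-matched (1.57, 0.954 to 2.61). Asb2, a ubiquitin ligase subunit, had a ratio of 3.73 (2.48 to 5.69; ribosome-matched 3.12). Angptl2, a secreted angiopoietin-like protein, had one of 3.35 (2.11 to 5.41; 2.54), and Bcl2a1d, an anti-apoptotic gene with near-identical copies that could share its reads, one of 3.03 (2.15 to 4.30; 3.09).

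Penk, which encodes the opioid precursor proenkephalin, showed a difference in amount and hardly in the share of cells. It had 499 UMIs in gated cells and 369 UMIs in other cells, and 1 gated cell held 91 of them. The ratio was 2.70 (2.36 to 3.10; ribosome-matched 2.42), yet Penk was found in 24.4% of gated cells, against 21.4% of other cells. Ier3, an early response gene, had 27 UMIs in 16 gated cells, against 4 UMIs in 3 other cells (ratio 13.5, 4.70 to 53.0; ribosome-matched 13.5). Mt1, a metal-binding metallothionein, had a ratio of 2.28 (1.48 to 3.51; ribosome-matched 1.63).

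Transcription factors of effector Tregs leaned higher by their median, though not all went that way. Of 15 measured, 6 were higher and 1 lower (median log2 ratio 0.59), and ribosome-matched 2 were higher and 1 lower (median 0.41). Gata3, which supports tissue Tregs, was at 726 CPM in gated cells, against 449 CPM in other cells (ratio 1.62, 1.39 to 1.88; ribosome-matched 1.51). Prdm1 (Blimp-1), known to drive Il10 in effector Tregs, had 29 UMIs in gated cells and 29 UMIs in other cells although 201 gated cells stood against 402 others (ratio 2.0, 1.15 to 3.46; ribosome-matched 1.45). Maf, another known driver of Il10, had a ratio of 1.11 (0.906 to 1.35; ribosome-matched 0.969) and was not called. Rora, a nuclear receptor of tissue Tregs, was lower, with 19 UMIs in gated cells and 85 UMIs in other cells (ratio 0.446, 0.256 to 0.741; ribosome-matched 0.434).

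The nonlymphoid-tissue Treg genes, the programme named by the study's title, did not move one way. Of 16 measured, 6 were higher and 2 lower, and the median log2 ratio was 0.06, close to that of all genes; ribosome-matched 3 were higher and 2 lower (median -0.01). Tnfrsf8, Itgav and Gata3 were higher in both comparisons, and Rora and Ccr2 lower in both. Dgat1, which makes triglycerides, was the only one of 6 measured lipid and PPARg target genes called (ratio 2.47, 1.34 to 4.62), and it was not called ribosome-matched (1.99). Type 1 regulatory genes had 2 of 7 higher, Prdm1 and Ahr, and ribosome-matched 0 of 7 were higher and 1 lower.

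Genes of resting and recirculating Tregs were lower than in depth-matched other cells, with fewer calls against Klrg1-positive cells (given below). Of 9 measured resting Treg genes, 0 were higher and 4 were lower: Klf2, S1pr1, Id3 and Bcl2 (median log2 ratio -0.41), and the same count of 4 was lower ribosome-matched (median -0.66). Klf2, a factor that maintains lymphoid homing and egress genes (chromosome 8, 72319033 to 72321656, plus strand), was at 117 CPM in gated cells, against 324 CPM in other cells (ratio 0.360, 0.261 to 0.489; ribosome-matched 0.328). S1pr1, the receptor by which T cells leave lymphoid organs, had 20 UMIs in gated cells and 73 UMIs in other cells (ratio 0.547, 0.316 to 0.907; ribosome-matched 0.510). Id3, an inhibitor of E proteins, had a ratio of 0.378 (0.243 to 0.569; ribosome-matched 0.447).

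Ms4a4b, a membrane protein of T cells (chromosome 19, 11443553 to 11467055, plus strand), was at 206 CPM in gated cells, against 704 CPM in other cells. Its ratio was 0.292 (0.231 to 0.366), and 0.237 ribosome-matched. In thinned cells it was found in 12.1% of gated cells, against 31.7% of other cells.

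Among chemokine and egress receptors other than Ccr8, 1 of 9 measured was higher and 3 were lower (median log2 ratio -0.38); ribosome-matched, 0 of 7 were higher and 3 lower (median -0.33). Ccr2, a receptor for monocyte-attracting chemokines (chromosome 9, 124101950 to 124113557, plus strand), had 8 UMIs in 6 of 201 gated cells, against 105 UMIs in 47 of 402 other cells (ratio 0.152, 0.0640 to 0.311; ribosome-matched 0.102). Ccr4, a skin-homing receptor, had 4 UMIs in gated cells and 37 UMIs in other cells (ratio 0.216, 0.0559 to 0.601; ribosome-matched 0.166). Cxcr6 was higher on depth alone, with 23 UMIs in gated cells and 21 UMIs in other cells (ratio 2.19, 1.16 to 4.15), and had a ribosome-matched ratio of 1.15. Of 10 measured integrin and selectin ligand genes, 2 were higher and 1 lower on depth, while 1 was higher and 3 were lower ribosome-matched. Selplg, a selectin ligand, was lower in both (ratio 0.651, 0.545 to 0.774; ribosome-matched 0.510), and Itgb1, an integrin subunit, was called lower ribosome-matched alone (0.669 on depth, 0.535 ribosome-matched).

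Cell cycle genes were lower in matched gated cells. Of 9 measured, 3 were lower and 0 higher (median log2 ratio -0.24), and 5 were lower ribosome-matched (median -1.0). Rrm2, a subunit of ribonucleotide reductase, had 4 UMIs in 4 gated cells and 44 UMIs in 15 other cells (ratio 0.182, 0.0474 to 0.499, and ribosome-matched 0.183). Top2a, a topoisomerase of dividing cells, had 9 UMIs in gated cells and 44 UMIs in other cells, with a ribosome-matched ratio of 0.340, and Stmn1 had 11 UMIs in gated cells and 69 UMIs in other cells, with one of 0.318. Stmn1 had 40 UMIs in all 208 gated cells, so the 7 gated cells without partners held most of them; the lower level of these genes applies to the matched cells.

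The other lists had few calls. Immediate early genes had 1 of 15 higher and 1 lower, interleukin 2 and SOCS response genes 0 of 9 in either direction, survival genes 0 of 8 higher and 1 lower, interferon response genes 0 of 6 in either direction, stress and dissociation genes 1 of 9 higher and 1 lower, and metallothionein and iron genes 1 of 5 higher. Ribosome-matched, immediate early genes had 1 of 14 higher and 0 lower, and survival genes 0 of 8 higher and 1 lower. Stress and dissociation genes had 0 of 8 in either direction, and metallothionein and iron genes 1 of 5 higher. Ier3, the stress gene called higher on depth, fell under the count minimum there and is not among the 8. Jun, an early response factor also induced by tissue handling, was lower on depth (ratio 0.467, 0.263 to 0.787) and was not called ribosome-matched (0.574, 0.308 to 1.04). Rel, an NF-kappaB subunit, was higher on depth (2.31, 1.40 to 3.83) and was not called ribosome-matched (1.52, 0.891 to 2.62). Read against the background of 6.87 and 3.02%, 1 call in a list of this size is not a result about the list.

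**Figure D4:**
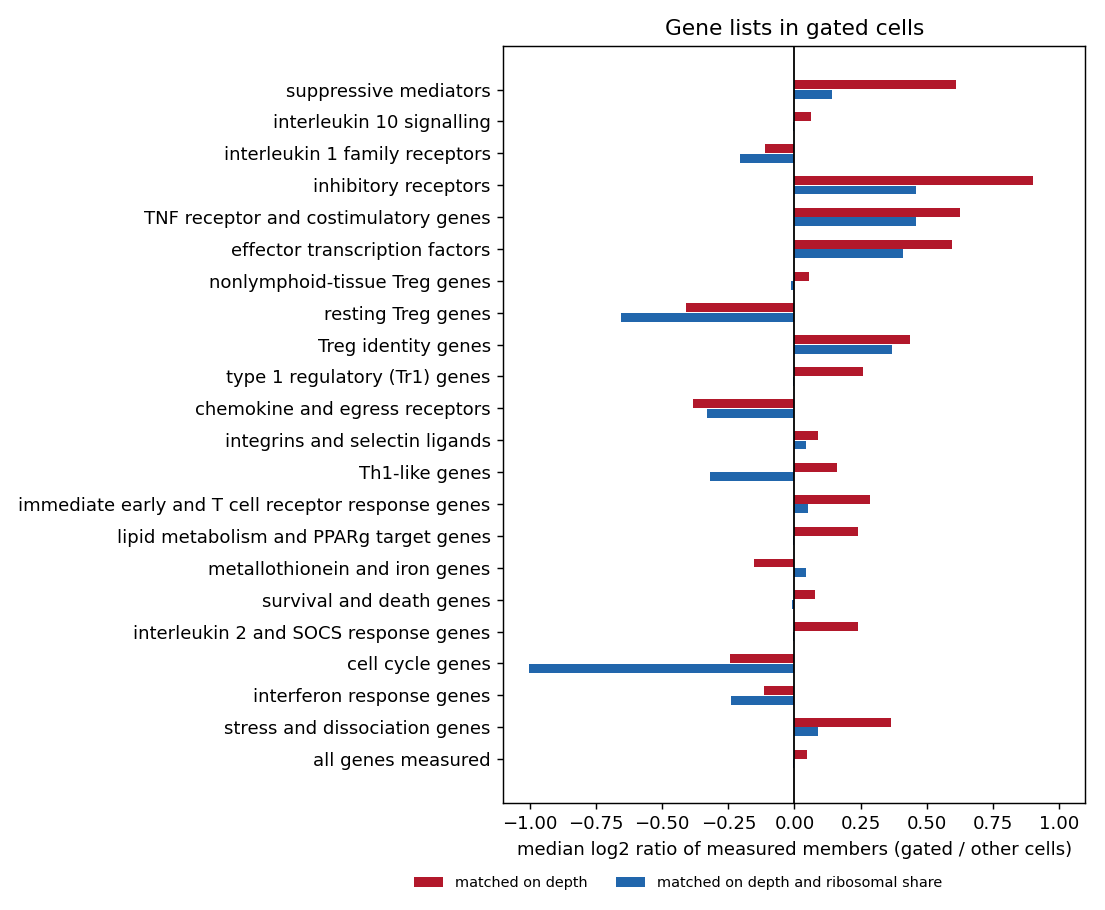
Median log2 ratio of the measured members of each list, gated cells over other cells, matched on depth (red) and on depth and ribosomal share (blue), with all measured genes at the bottom. Inhibitory receptors (0.90 and 0.46) and TNF receptor genes (0.63 and 0.46) lie right of 0 in both, and resting Treg genes (-0.41 and -0.66) and cell cycle genes (-0.24 and -1.0) lie left of 0 in both.

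Several differences were graded by the number of gate UMIs in a cell. In cells with 0, 1, 2, 3 to 4, and 5 or more gate UMIs, Tnfrsf9 was at 890, 1620, 1978, 2663 and 2848 CPM. In the same classes Ms4a4b was at 853, 471, 336, 145 and 60.1 CPM and Klf2 at 414, 238, 190.5, 94.1 and 48.1 CPM. Ccr2 stood at 129 CPM in cells with 0 gate UMIs and at 34.1 CPM or less in each other class. Nkg7 took another course, with 96.9, 68.1 and 123 CPM up to 2 gate UMIs, then 441 and 925 CPM. Among the 12 lowest genes, Hmgb2, Stmn1 and Hist1h2ap were highest in cells with 5 or more gate UMIs. The other lowest genes peaked in cells with 0 or 1. Hmgb2 was at 421, 447, 252, 203 and 559 CPM. Stmn1 reached 186 CPM at 5 or more (31 UMIs in 4 cells), against 52.4 CPM at 0. Hist1h2ap reached 108 CPM at 5 or more (18 UMIs in 3 cells), against 102 CPM at 1 and 7.24 CPM at 3 to 4. The ribosome-poor share was graded too, at 56.8, 64.1, 67.5, 75.4 and 83.3%. Cells with 1 gate UMI, outside the rule, thus lay between the cells with 0 and the gated cells for Tnfrsf9, Ms4a4b and Klf2, with median depths of 1444 UMIs in cells with 1, 1460 UMIs in cells with 0 and 2100.5 UMIs in cells with 5 or more. These are means over classes that the rule itself defines, and whether they reflect a range or a mixture of types was not tested.

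**Figure D5:**
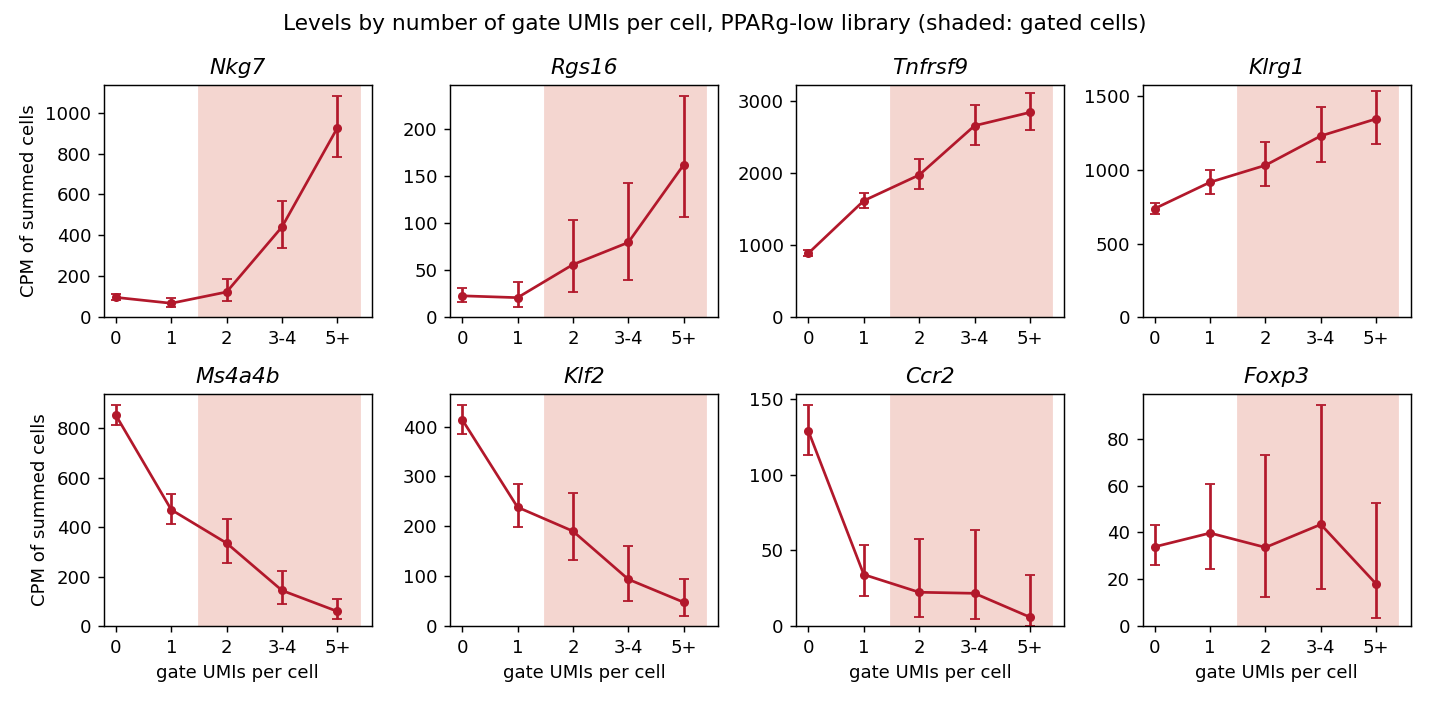
CPM of 8 genes in PPARg-low cells summed by gate UMIs per cell: 0, 1, 2, 3 to 4, and 5 or more (x axis; 1121, 290, 83, 65 and 60 cells; shaded classes are gated). Lines on points are exact 95% counting intervals; Nkg7 is low up to 2 gate UMIs and 925 CPM at 5 or more, while Ms4a4b is 853 CPM at 0 and 60.1 CPM at 5 or more, and Foxp3 intervals overlap throughout.

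Within the gated cells, levels varied with which gate genes were present. Gated cells with 2 or more of the 4 genes (132 cells) had Nkg7 at 641 CPM, against 149 CPM in the 76 cells with 1. The same cells had Ms4a4b at 98.4 CPM, against 386 CPM with 1 gene, and Klf2 at 56.6 CPM, against 244 CPM. Ctla4 went with Il10: it was at 1876 CPM in the 69 gated cells with Il10, against 661 CPM in the 139 without. Nkg7 went with Lag3, at 620 CPM in the 154 gated cells with Lag3, against 99.8 CPM in the 54 without. The ribosome-poor share was 85.5% with Il10 and 69.1% without, and 74.0% with Lag3 and 75.9% without.

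The 155 ribosome-poor gated cells were shallower, with a median of 1503 UMIs, against 3212 UMIs in the 53 ribosome-rich ones. Tnfrsf9 was at 3515 CPM in ribosome-poor gated cells, against 1132 CPM in ribosome-rich ones, and Nkg7 at 673 CPM, against 256 CPM. Ctla4 was at 1698 CPM in ribosome-poor gated cells, against 313 CPM in ribosome-rich ones. What part ribosomal share has in the Ctla4 difference by Il10 was not tested. Klrg1 was found in 147 gated cells and not in 61. Il10 was at 488 CPM in gated cells with Klrg1, against 248 CPM in those without, whereas Lag3 was at 793 CPM with Klrg1, against 771 CPM without.

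Because many PPARg-low cells carry Klrg1, gated cells were also set against 207 depth-matched Klrg1-positive cells outside the gate, drawn from 752. Of 4140 measured genes, 248 (5.99%) were higher in gated cells and 129 (3.12%) lower. All 12 of the highest and 10 of the 12 lowest genes were called in the same direction. Those genes were picked on nearly the same gated cells, with partners from the same library, so their count is a description and lends no support. Tnfrsf9 had a ratio of 2.15 (1.94 to 2.38) and Nkg7 one of 5.23 (3.79 to 7.36). The Penk ratio was 1.60 (1.38 to 1.85), yet Penk was found in fewer gated cells (51) than Klrg1-positive cells (61). Resting Treg genes had 1 of 8 lower here, and Id3 had a ratio of 0.808 (0.502 to 1.29). Vim, the intermediate filament gene of activated and migrating cells, was lower, with a ratio of 0.385 (0.312 to 0.473), and the endosome gene Eea1 was higher at 4.18 (2.31 to 8.11). Of the gated cells 74.9% were ribosome-poor, against 50.2% of the Klrg1-positive cells.

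The same rule picked few PPARg-negative cells. It took 12.8% (11.3 to 14.6%) of PPARg-low cells and 1.03% (27 of 2633, 0.677 to 1.49%) of PPARg-negative cells. After thinning to 750 UMIs, which left out cells with fewer, the shares were 6.66% (92 of 1381) and 0.418% (10 of 2394). The libraries differed in depth, with a median of 1517 UMIs in PPARg-low cells and 2171 UMIs in PPARg-negative cells.

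The 27 PPARg-negative gated cells were set against 81 other PPARg-negative cells of like depth and ribosomal share. Nkg7 (ratio 5.17, 2.34 to 12.02), Rgs16 (8.98, 1.61 to 90.9), Tnfrsf9 (3.97, 2.62 to 6.04) and Tnfrsf4 (2.62, 2.07 to 3.31) again had intervals above 1, 4 of the 12 highest PPARg-low genes. Pdcd1 did so too (3.39, 1.59 to 7.29). Ccr2 (0.293, 0.0914 to 0.730), Ms4a4b (0.220, 0.140 to 0.330), Klf2 (0.244, 0.123 to 0.440) and Hmgb2 (0.512, 0.261 to 0.929) had intervals below 1, 4 of the 12 lowest. Among the 24 genes, 1 had an interval on the opposite side: Hist1h2ap, with its 9 UMIs in 1 gated cell. Ctla4 (0.748), Gpr55 (0.748) and Penk (0.352) had ratios below 1 here, and Id3 (1.65) and Stmn1 (1.12) above 1. The intervals of these 5 genes hold 1. Ltb4r1 had 0 UMIs in gated cells. An interval beyond 1 is a looser bound than the 1.5-fold call. The share of all genes that meet it is not given, so these counts describe the named genes only. Klrg1 had 1 UMI in the gated cells and 57 UMIs in the 81 matched cells (ratio 0.0525, 0.00131 to 0.304). Over all 2606 other PPARg-negative cells its level was 53.5 CPM, nearer to the 21.5 CPM that this 1 UMI gives in gated cells than the 410 CPM of the matched cells, so its size rests on the partners taken.

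Set directly against each other, PPARg-low and PPARg-negative gated cells differed most plainly in Klrg1 and Penk among these genes. Klrg1 had 578 UMIs in 147 of 208 PPARg-low gated cells, against 1 UMI in 27 PPARg-negative gated cells (ratio 55.6, 9.93 to 2199), and Penk 501 UMIs, against 2 UMIs (24.1, 6.63 to 199). Ctla4 was also higher in the PPARg-low cells (3.17, 1.94 to 5.59). These differences were not particular to gated cells. PPARg-low cells with 0 gate UMIs had Klrg1 at 737 CPM, Penk at 403 CPM and Ctla4 at 498 CPM. Other PPARg-negative cells had them at 53.5, 28.4 and 160 CPM. Nkg7 had a ratio of 1.20 (0.751 to 2.03), Rgs16 one of 0.769 (0.329 to 2.20) and Angptl2 one of 0.769 (0.350 to 2.0), all with intervals that hold 1. Of the gate genes themselves, Il10 was at 414 CPM in PPARg-low gated cells, against 86.1 CPM in PPARg-negative ones, and Lag3 at 787 CPM, against 1206 CPM. Both genes helped to choose the cells in each library, so these levels are only a description. The PPARg-negative Il10 level is 4 UMIs in 3 cells.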

How the data were processed

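For each library the authors deposited a matrix of unnormalized UMI counts. Per the submitters' processing notes it came from Cell Ranger 2.1.0 on mm10. How cells were called, which annotation served and whether strand was used is not given in the sources used here. Both files hold 28692 genes for 1992 PPARg-low and 2902 PPARg-negative barcodes, with 3227201 and 6114403 UMIs; 28339 of the gene identifiers were in GENCODE M21. The cells are PPARg-low by their label but tagged pos in the file names; the text follows the label, since nothing here settles it.

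The cells were chosen by a rule on these counts, and the members and the 29 gene lists were chosen with earlier results of these data known. Each gated cell was paired without reuse with other kept cells within 0.05 on log10 depth (UMIs outside the 4 gate genes). As 3 partners could not be found for 95% of gated cells, 2 were used, and 1 in the ribosome-matched and Klrg1-positive comparisons. Counts were summed over cells without the gate genes, and each ratio of CPM has a 95% interval by the exact conditional binomial method; a count of 0 was replaced by a floor of 3 counts over that set of cells. Shares have exact binomial (Clopper-Pearson) 95% intervals. Cells are not replicates, so no test was run. The ratio code was checked on simulated counts. Scrublet marked 0.679% of PPARg-low and 0.304% of PPARg-negative cells as doublets, which were kept, so undetected doublets remain possible.

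Genes were named by a rule: the 12 highest and 12 lowest by the interval bound nearest to 1, with 50 or more UMIs and leaving out antigen receptor, ribosomal protein, mitochondrially encoded, predicted and sex-linked genes and markers of other cells; from each list, up to 4 members; Pparg, Foxp3 and Klrg1; and the 6 highest and 6 lowest against Klrg1-positive cells. Tigit, Icos, Ebi3, Ccl3, Il1r1, Cd3e, the genes at 0 and the T cell receptor genes were chosen after their values were seen. The gate gene Il1r2 and, among the 24 leading genes, Gpr55, Rgs16, Tnfrsf9, Asb2, Penk, Bcl2a1d, Angptl2, Evl and Hist1h2ap overlap a gene on the other strand, and Il1r2, Ctla4, B4galt1, Stmn1 and Evl one on their own, with which they may share reads; many other named genes overlap one too, Foxp3, Pparg, Jun and Gata3 among them. Alternatives covered matching, gate, filters, thinning, weights and count minimums. Tools were scanpy 1.11.5, pandas 2.3.3, scipy 1.17.1, numpy 2.4.6 and matplotlib 3.10.9 in Python 3.11.15.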

Additional observations from a re-analysis of the deposited data

Results flagged for a closer look

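Barcodes left out for a high mitochondrial share also held the gate signal: 10.99% (41 of 373; 8.00 to 14.6%) of PPARg-low barcodes with over 10% mitochondrial UMIs passed the gate, against 2.23% (6 of 269; 0.823 to 4.79%) of such PPARg-negative barcodes. These barcodes enter no comparison above.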

How the results depend on the processing

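No paired analysis was possible because each group is 1 library. The counts of genes called depended on the cells compared. Against 348 higher genes, there were 197 with ribosome-matched partners, 126 in ribosome-poor cells alone, 111 in ribosome-rich cells alone, 212 with 5% or less mitochondrial UMIs, 151 with each cell thinned to 750 UMIs and 160 at a minimum of 100 UMIs. Against 153 lower genes, there were 296 without matching, 90 in ribosome-rich cells, 101 with 5% or less mitochondrial UMIs, 280 with equal weight per cell and 66 at a minimum of 100 UMIs. Thinning, higher minimums and subsets of cells compare fewer UMIs or genes; the cause of the others was not tested. The Klrg1 share was 71.1% in gated cells and 55.5% in other cells unthinned. The ribosome-poor share was 64.2% in gated cells and 39.1% in other cells at a 15% bound, 85.6 and 64.9% at a 25% bound, and 58.3% in other cells without matching. The gated share was 6.66% of PPARg-low and 0.418% of PPARg-negative cells thinned, 7.72 and 0.456% with 3 gate UMIs, and 10.8 and 0.562% with 5% or less mitochondrial UMIs. Of the named genes, Stmn1 changed sign without matching (log2 ratio 0.44). In ribosome-rich cells Ctla4 (-0.22), Klrg1 (-0.15), Tgfb1 (-0.33), Furin (-2.33) and Cxcr6 (-2.81) did. With 5% or less mitochondrial UMIs Furin (-0.74) and Cxcr6 (-0.23) did, and thinned Cxcr6 (-0.0076) and Rrm2 (0.26). Cxcr6, Furin and Rrm2 rested on 26 or fewer UMIs there. Leaving out the top cell of each gene, and taking other cells with 0 gate UMIs, were chosen after seeing the data; they gave 306 and 374 higher genes.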

Other observations

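The T cell receptor beta constant genes, left out of the naming rule, leaned apart. Trbc1 was found in 62.7% (55.6 to 69.4%) of gated cells, against 52.5% (47.5 to 57.5%) of other cells, with a ratio of 1.32 (1.20 to 1.45; ribosome-matched 1.16). Trbc2 was found in 83.1% (77.2 to 88.0%) of gated cells, against 91.5% (88.4 to 94.1%) of other cells, with a ratio of 0.800 (0.740 to 0.864; ribosome-matched 0.835). The 2 genes are close in sequence, so reads could be split between them, and whether few clones carry this lean was not tested. None of these ratios reaches the 1.5 that a call needs.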
